A study of Mus musculus with 9 samples.

Results

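Mouse small intestinal crypt organoids of the genotype *Vil-CreERT2;Mettl3 fl/fl* were treated with 4-hydroxytamoxifen (4-OHT) or with its solvent ethanol (EtOH). The comparison described here is that of the libraries without Nec-1: 2 libraries labelled 4-OHT DMSO against 2 labelled EtOH DMSO, which are 4 of the 9 samples of the series. *Mettl3* encodes the catalytic subunit of the enzyme that writes m6A on mRNA, and Cre under the villin promoter, fused to a tamoxifen-responsive receptor, is meant to remove the floxed part of the gene in epithelial cells. Every library of the comparison came from organoids of the C57BL/6 label with the same *Vil-CreERT2;Mettl3 fl/fl* genotype, in medium with EGF, Noggin and R-spondin1. Organoids received 500 nM 4-OHT or EtOH for 2 days. DMSO, the solvent of the RIPK1 inhibitor Nec-1, was given for 5 days. The EtOH organoids therefore carry the same alleles as the 4-OHT organoids, and with no 4-OHT-treated organoids lacking Cre or the floxed allele, the drug and the deletion cannot be told apart. The other 3 RNA libraries, 2 labelled EtOH Nec-1 and 1 labelled 4-OHT Nec-1, came from the same design with the inhibitor in place of DMSO, and the 2 CUT&Tag samples were not analysed here.

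Of 54838 gene identifiers, the 12381 with at least 1 FPKM (fragments per kilobase of transcript, scaled to the mapped fragments of the library) in 2 or more of the 4 libraries were tested. Labels do not say whether the libraries of a group come from separate cultures, so p-values measure only the spread between these libraries. Values were taken as log2(FPKM + 1), so that a difference of 1 is close to a doubling for a well-expressed gene and less than that for a gene of a few FPKM, and groups were compared with limma, fitted to all 7 RNA libraries with 1 mean per group. A gene is called higher or lower where its Benjamini-Hochberg adjusted p was under 0.05, and differences are written as 4-OHT minus EtOH, in log2 units, with their standard error (SE). The description turns on the 12192 tested genes outside a list of interferon-response genes, of which 189 were tested, with 30 gene lists for enterocyte metabolism, secretory cells and regulators. Of the 834 genes on these lists, 830 were in the files and 714 passed the filter. Of those 714, 19 were under 1 FPKM in both EtOH DMSO libraries and passed through the 4-OHT libraries, and 11 were under it in both 4-OHT DMSO libraries and passed through the EtOH libraries. All 19 were called higher and 10 of the 11 lower, as the filter favours, and they are in the counts of the lists below. Without these members, 192 of 684 were called higher and 222 lower, against 211 and 232 of 714 with them.

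The small intestinal epithelium divides its work among a few cell types. Absorptive enterocytes carry a brush border of digestive enzymes and transporters, burn and build fat, convert fructose and amino acids, and detoxify what they absorb through cytochrome P450 and conjugating enzymes. Paneth cells, goblet cells and enteroendocrine cells secrete antimicrobial peptides, mucus and hormones. High Notch signalling through *Hes1* favours the absorptive fate, and *Atoh1* drives the secretory one. In bulk libraries of this kind, fewer cells of a type and less RNA per cell cannot be told apart.

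The libraries held epithelial RNA. The 8 epithelial markers, such as *Epcam* and *Cdh1*, summed to 3722 to 3997 FPKM in EtOH DMSO and to 4872 to 5595 FPKM in 4-OHT DMSO, and 6 of the 8 were called higher. The 6 small intestinal markers all reached 1 FPKM and summed to 1116 to 1168 FPKM against 776 to 845 FPKM. Immune markers summed to 1.86 to 3.10 FPKM against 1.58 to 1.70 FPKM, with *Cd4* and *Itgax* at 0 in all libraries, and markers of fibroblasts and muscle stayed at or under 0.853 FPKM in sum, with *Lum* at 0. Markers of endothelium, of neurons and glia and of erythroid cells were all under 1 FPKM in every library. Of these 5 lists only the immune marker *Itgam* passed the filter, and it was not called, so the rest were not tested. The 10 most abundant genes took 19.9% to 22.2% of the FPKM sum in the 4 libraries. Genes of ribosomal proteins took 12.9% and 11.7% of the FPKM sum in EtOH DMSO and 8.78% and 8.77% in 4-OHT DMSO, and 38 of 86 tested were called lower and 3 higher, beside 17.1% and 25.3% of all genes. The part of this difference in the other results was not tested. *Mettl3* itself stood at 2.7 and 2.71 FPKM in EtOH DMSO and 3.72 and 4.14 FPKM in 4-OHT DMSO, a rise of 0.41 log2 units (SE 0.10, adjusted p = 0.0226) that did not pass without 4-OHT DMSO replicate 2 (adjusted p = 0.0901), EtOH DMSO replicate 1 (0.0677) or EtOH DMSO replicate 2 (0.0628), nor with centring on the median (0.0744). A value summed over all exons does not show whether the floxed part is missing, so the gene gives no check of the labels, and all directions below are those of libraries as labelled.

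Over all genes tested, 3135 (25.3%) were higher and 2116 (17.1%) lower in the libraries labelled 4-OHT DMSO. With each library centred on its median, the same test gave 2259 higher (18.2%) and 3111 lower (25.1%), so the share of calls that were higher went from 59.7% to 42.1%, and every difference shifted down by 0.15. A change of at least 1 log2 unit is further from that shift. Outside the interferon list, 738 genes (6.05%) rose and 461 (3.78%) fell by that much, against 506 (4.15%) and 711 (5.83%) with centring. For the lists below, the figures to read against are 6.91% of all genes higher and 3.76% lower by at least 1 log2 unit, and an all-gene median difference of 0.08.

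**Figure D1:**
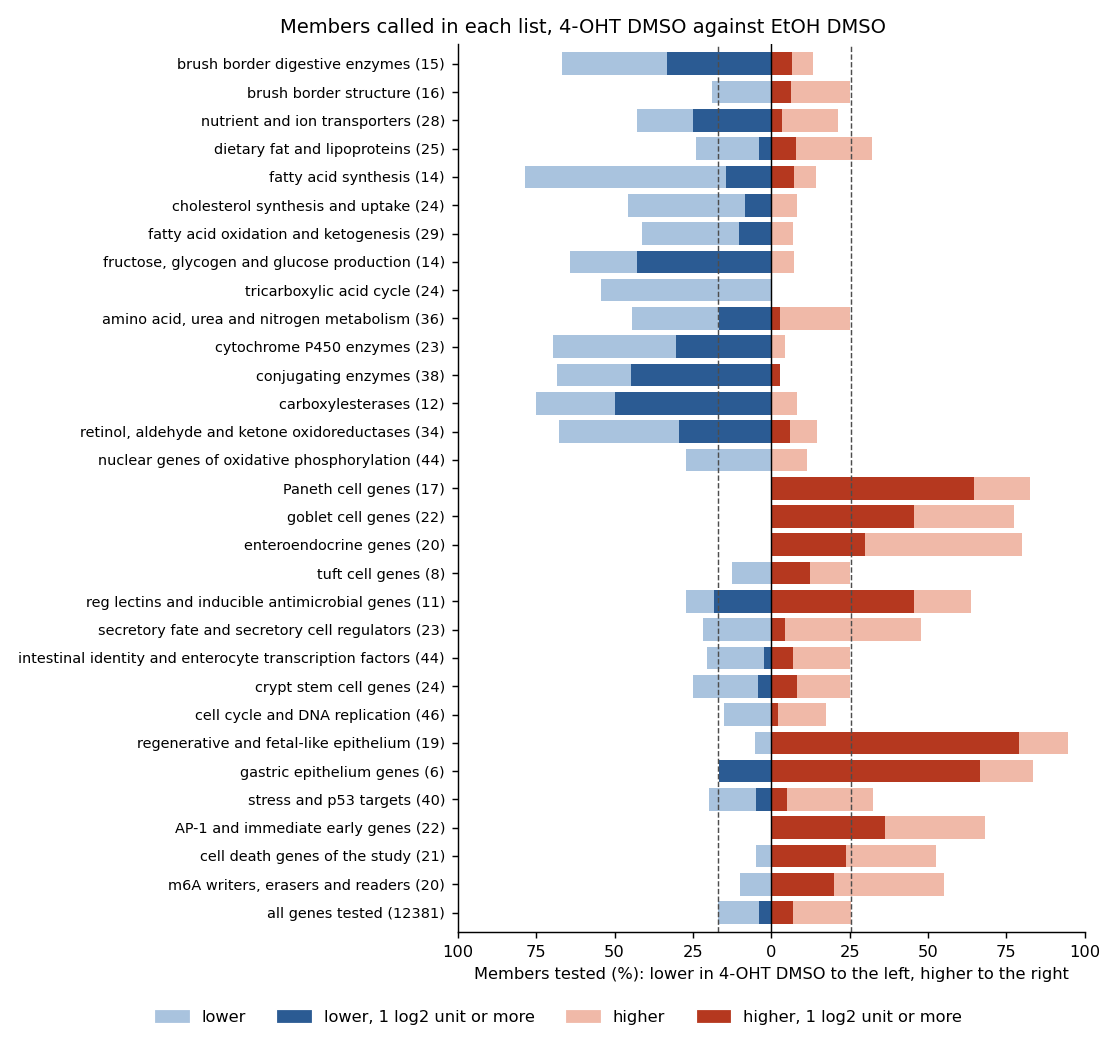
Share of the tested members of each gene list called lower (left) or higher (right) in 4-OHT DMSO, with the part that moved by at least 1 log2 unit in dark colour; the number tested is in parentheses and dashed lines mark the shares over all 12381 genes. The carboxylesterases, conjugating enzymes and fructose genes extend furthest to the left in dark blue, and the regenerative, gastric and Paneth lists furthest to the right in dark red, the gastric list with 6 tested genes, of which 4 were under 1 FPKM in both libraries of a group.

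Among the metabolic genes of enterocytes most calls were lower. Over 15 lists of brush border, transport, lipid, sugar, amino acid, detoxification and mitochondrial genes, 376 of 419 members were tested, 189 fell and 49 rose. Of these, 72 fell by at least 1 log2 unit and 10 rose by that much. Together the 15 lists took 6.67% and 6.78% of the FPKM sum in the EtOH DMSO libraries and 4.32% and 4.63% in the 4-OHT DMSO libraries, and their median difference was -0.38. Centring on the median gave 229 lower and 33 higher.

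Carboxylesterases and conjugating enzymes had the lowest medians of the 30 lists. Of 38 tested conjugating enzymes 26 fell, 17 of them by at least 1 log2 unit, and 1 rose (median -0.85). These enzymes attach sugars, sulfate or glutathione to drugs, bile pigments and steroids. *Ugt1a9*, a glucuronosyltransferase, stood at 58.7 and 34.5 FPKM in EtOH DMSO and 0.161 and 0.313 FPKM in 4-OHT DMSO, and fell by 5.22 ± 0.26 (adjusted p = 0.000341). It shares its downstream exons with the rest of the *Ugt1a* cluster, so its reads may be split among them. *Ugt1a1*, the member that conjugates bilirubin, went from 127 and 98.7 to 33.3 and 23.8 FPKM and fell by 1.95 ± 0.19 (adjusted p = 0.00154). The sulfotransferase *Sult1b1* went from 61.3 and 53.5 to 7.83 and 9.69 FPKM (fell by 2.58 ± 0.12, adjusted p = 0.000319). Glutathione transferases gave mixed values. *Gstm3* fell from 1036 and 1051 to 219 and 309 FPKM and *Gstt1* from 56.5 and 55.8 to 11.6 and 14.9 FPKM. Of the alpha class, *Gsta3* fell from 69.3 and 62.7 to 30.9 and 36.5 FPKM (0.95 ± 0.11, adjusted p = 0.0021). *Gsta2*, at 124 and 127 against 77.4 and 258 FPKM, was set by single libraries, with a difference of 0.17 ± 0.52 (adjusted p = 0.819) that was 1.03 without 4-OHT DMSO replicate 1 and -0.69 without replicate 2. *Gsta1* (696 and 622 against 732 and 660.5 FPKM, difference 0.08 ± 0.11) and *Gsta4* (427 and 375 against 389.5 and 428 FPKM, difference 0.03 ± 0.10) overlapped between the groups. The acetyltransferase *Nat2* was the only tested member called higher, at 13.7 and 10.7 against 32.8 and 35 FPKM (rose by 1.41 ± 0.13, adjusted p = 0.00119). Members of the *Gstm*, *Gsta* and *Ugt2b* families are near copies of each other, and how the authors' counting shared their reads is not known.

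Carboxylesterases, which cleave ester drugs and lipids, and cytochrome P450 enzymes, which oxidise them, followed the same direction. Of 12 carboxylesterase-list genes tested, 9 fell, 6 of them by at least 1 log2 unit, and 1 rose (median -1.04). *Ces1d* (chr8:93166072-93197804, GRCm38.p6) stood at 70.2 and 65.3 against 0.891 and 1.74 FPKM and fell by 4.92 ± 0.18 (adjusted p = 0.000225), and its neighbours *Ces1f* (189 and 179 against 27.1 and 36.2 FPKM) and *Ces1g* (26.8 and 29.9 against 2.51 and 3.25 FPKM) fell by 2.51 ± 0.14 and 2.93 ± 0.12. The exception, *Ces2b*, was low throughout, at 0.647 and 0.657 against 1.95 and 1.82 FPKM, and passed the filter only through the 4-OHT DMSO libraries. Of 23 P450-list genes, 16 fell, 7 of them by at least 1 log2 unit, and 1 rose (median -0.71). *Cyp2c68* went from 22.6 and 21 to 6.63 and 3.88 FPKM and *Cyp2b10*, a known target of the receptor CAR, from 14 and 11.5 to 3.4 and 3.18 FPKM (fell by 1.68 ± 0.11, adjusted p = 0.000592). *Cyp3a13* was the member called higher (50.1 and 46.2 against 66.8 and 68.3 FPKM, rose by 0.48 ± 0.08). In none of *Ces1d*, *Cyp2c68* or *Cyp2b10* did the 2 groups overlap, as was so for 30.8% of all genes in this direction.

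Retinol, aldehyde and ketone oxidoreductases, which turn vitamin A into its active and storage forms and clear aldehydes and steroids, lost 23 of 34 tested members, 10 by at least 1 log2 unit, with 5 higher (median -0.68). The steroid dehydrogenase *Akr1c14* went from 72.3 and 61.1 to 4.89 and 4.58 FPKM and fell by 3.56 ± 0.10 (adjusted p = 0.000225). *Aldh1a1*, which makes retinoic acid, went from 62 and 56.9 to 10.3 and 11.6 FPKM (fell by 2.34 ± 0.09), and its close copy *Aldh1a7* from 73.1 and 62.1 to 8.02 and 8.94 FPKM. The retinal reductase *Dhrs3* (28.8 and 27.5 against 4.78 and 4.71 FPKM), the retinol-esterifying *Lrat* (1.18 and 1.44 against 0.225 and 0.107 FPKM) and the retinol carrier *Rbp2* (125 and 119 against 64.7 and 67 FPKM) fell as well. In the opposite direction, *Rdh10*, which oxidises retinol to retinal, went from 7.25 and 9.32 to 18.6 and 17.3 FPKM (rose by 1.04 ± 0.13, adjusted p = 0.00275). *Bco1*, which cleaves carotene into retinal, rose from 0.394 and 0.541 to 2.51 and 1.62 FPKM. *Lrat* and *Bco1* were each under 1 FPKM in both libraries of their lower group, so each passed the filter only through the higher group. Other enzymes able to oxidise retinol went down, as *Adh1* (451 and 431 against 102 and 134 FPKM) and *Rdh7* (16.1 and 15.3 against 2.9 and 3.58 FPKM) fell by 1.9 ± 0.14 and 1.98 ± 0.11.

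Most tested genes of the list for fructose, glycogen and glucose production, called the fructose list or fructose genes elsewhere, fell. Of 14 tested members, 9 fell, 6 by at least 1 log2 unit, and 1 rose (median -0.74), and the list took 0.509% and 0.502% of the FPKM sum in EtOH DMSO against 0.136% and 0.147% in 4-OHT DMSO. *Slc2a5*, the fructose transporter counted with the transporters, went from 11.1 and 10.3 to 2.15 and 2.36 FPKM (fell by 1.85 ± 0.10, adjusted p = 0.000399). Ketohexokinase (*Khk*), which phosphorylates fructose, went from 182 and 159 to 20.5 and 27.2 FPKM and fell by 2.79 ± 0.15 (adjusted p = 0.000384). In both genes the 4-OHT DMSO libraries lay below both EtOH DMSO libraries, as they did in 30.8% of all genes. *Tkfc*, which phosphorylates glyceraldehyde, followed, at 293 and 305 against 90.1 and 99.3 FPKM. *Fbp1* (chr13:62864753-62888298, GRCm38.p6), the fructose-1,6-bisphosphatase of glucose production, had the largest fall of the list, from 101.1 and 99.1 to 4.37 and 6.13 FPKM (4.03 ± 0.14, adjusted p = 0.000225), and its isoenzyme *Fbp2* was at 104 and 99.6 against 67.3 and 72 FPKM (fell by 0.54 ± 0.08). *Pgm2*, an enzyme of sugar phosphate conversion, was the tested member called higher (45.4 and 46.9 against 72.7 and 80.8 FPKM).

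**Figure D2:**
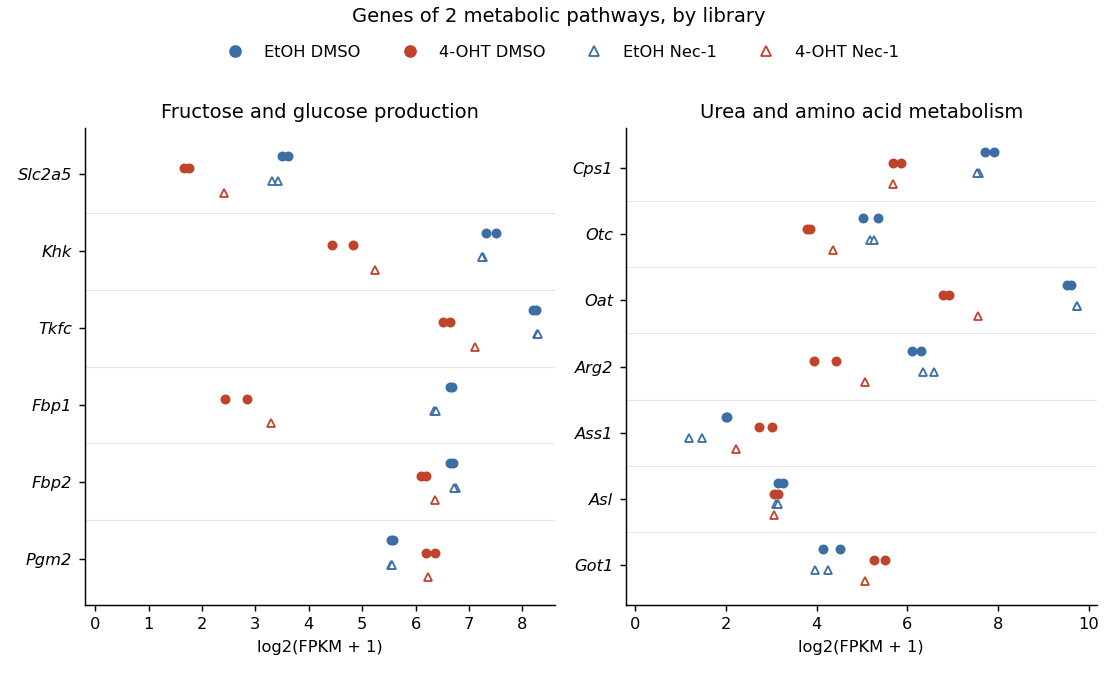
Level of 6 genes of fructose and glucose metabolism (left) and 7 of urea and amino acid metabolism (right) in each of the 7 RNA libraries, as log2(FPKM + 1); filled circles are DMSO and open triangles Nec-1 libraries, EtOH in blue and 4-OHT in red. *Khk*, *Fbp1*, *Oat*, *Cps1* and *Arg2* show the red circles far left of the blue ones, and *Asl* shows them together.

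Genes of amino acid and nitrogen metabolism fell more often than they rose, also with centring (18 lower and 6 higher). Of 36 tested members, 16 fell, 6 by at least 1 log2 unit, and 9 rose (median -0.31), beside 17.1% of all genes lower and 25.3% higher. The share that rose was thus near that of all genes. The 6 included the mitochondrial enzymes that make citrulline and ornithine: *Cps1*, carbamoyl phosphate synthetase, went from 209 and 238 to 57.5 and 50.7 FPKM (fell by 2.03 ± 0.10, adjusted p = 0.000368), and *Otc*, ornithine transcarbamylase, from 40.1 and 31.5 to 13.4 and 12.8 FPKM (fell by 1.37 ± 0.13, adjusted p = 0.00129). Ornithine aminotransferase (*Oat*), at 784 and 732 against 119 and 109 FPKM, fell by 2.72 ± 0.09 (adjusted p = 0.000225), the largest fall of the list. Arginase 2 (*Arg2*) went from 77.5 and 68.1 to 14.4 and 20.4 FPKM. The cytosolic enzymes of the route gave other values. *Ass1*, argininosuccinate synthase, rose from 3.06 and 3.03 to 7.05 and 5.65 FPKM (0.86 ± 0.15, adjusted p = 0.00846). *Asl*, the lyase after it, overlapped at 7.86 and 8.65 against 7.38 and 7.89 FPKM (difference -0.10 ± 0.09, adjusted p = 0.421). *Got1*, the cytosolic aspartate aminotransferase, was the member that rose most, from 16.6 and 21.7 to 37.8 and 44.4 FPKM (1.07 ± 0.17, adjusted p = 0.00617).

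Digestive enzymes of the brush border were mostly lower, while the counts for genes of its scaffold were near those of all genes. Of 15 tested enzymes, 10 fell, 5 by at least 1 log2 unit, and 2 rose (median -0.66). Sucrase-isomaltase (*Sis*) went from 279 and 305 to 106 and 118 FPKM (fell by 1.37 ± 0.10, adjusted p = 0.000642) and intestinal alkaline phosphatase (*Alpi*) from 76 and 78.1 to 22.3 and 30.3 FPKM (fell by 1.53 ± 0.16, adjusted p = 0.00165). The peptidases split: *Enpep* (32.1 and 36 against 8.37 and 7.91 FPKM) and *Mep1a* (7.87 and 7.33 against 1.6 and 0.681 FPKM) fell, and *Anpep* (16 and 21.1 against 37.4 and 43 FPKM) and the second meprin subunit *Mep1b* (14.8 and 13.1 against 27.1 and 24.9 FPKM) rose. Of 16 genes that build the microvilli, 4 rose and 3 fell, against 25.3% and 17.1% of all genes, with a median of -0.05, and with centring 3 rose and 6 fell. The actin bundler villin (*Vil1*), whose promoter drives the Cre, went from 102 and 120.0 to 157 and 159 FPKM (rose by 0.51 ± 0.10, adjusted p = 0.0111). The intermicrovillar cadherin *Cdhr5* went from 37.2 and 40.5 to 75.6 and 84.7 FPKM (rose by 1.03 ± 0.09, adjusted p = 0.00117). The difference between the 2 lists was not tested.

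Promoter sequence is shown for members of the metabolic lists whose window holds a letter match to a response element of HNF4, the family of *Hnf4a*. RefSeq promoter windows (250 bases before to 50 after each annotated start site, of which some genes have more than 1, GRCm38.p6) were found for 62 of the 72 metabolic genes that fell by at least 1 log2 unit, in 81 windows. The letters CAAAGTCCA, read on either strand, were in 3 of these 81 windows (3.7%), against 0.5% of the windows of all genes tested and 0.475% of all windows in the table. They were in 0.822% of the windows of genes outside the interferon list that rose by as much. The windows of all 461 genes that fell by as much outside the interferon list held them in 2.15%. Of the other motifs searched on both strands, TTTATG (a CDX factor element) was in 16.0% of the 81 windows, 6.5% of those of the genes tested and 11.9% of all windows. The E-box CACGTG was in 7.41%, 10.3% and 7.15%, the sterol element TCACCCCAC in 1.23%, 0.609% and 0.551%, and the AP-1 element TGANTCA in 2.47%, 5.3% and 7.81%. A direct repeat bound by nuclear receptors (direct repeat 1) was in none of the 81 and in 0.0546% and 0.0396% of the others. None of these letter strings contains another. A letter match is a description of the sequence and not a bound site. The 3 windows are given below, 5′ to 3′ on the strand of the gene, with the match in capitals.
*Alpi*, chr1:87101557-87101856, minus strand, match starting 19 bases before the start site: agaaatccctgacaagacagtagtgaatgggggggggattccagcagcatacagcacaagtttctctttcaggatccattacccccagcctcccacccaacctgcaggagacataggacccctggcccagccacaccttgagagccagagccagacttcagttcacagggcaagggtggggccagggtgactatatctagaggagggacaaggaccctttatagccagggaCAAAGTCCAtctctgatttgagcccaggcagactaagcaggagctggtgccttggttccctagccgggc
*Cyp2c68*, chr19:39741052-39741351, minus strand, match starting 77 bases before the start site: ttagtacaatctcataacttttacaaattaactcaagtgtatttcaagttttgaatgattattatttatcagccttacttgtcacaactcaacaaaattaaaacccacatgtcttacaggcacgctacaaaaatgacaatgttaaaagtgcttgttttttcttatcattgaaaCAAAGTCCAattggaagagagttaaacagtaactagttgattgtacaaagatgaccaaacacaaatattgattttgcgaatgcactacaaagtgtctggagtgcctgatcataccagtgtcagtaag
*Sult1b1*, chr5:87536173-87536472, minus strand, around a start annotated 1973 bases inside the outermost one, match starting 25 bases after it (the window of the outermost start held no match): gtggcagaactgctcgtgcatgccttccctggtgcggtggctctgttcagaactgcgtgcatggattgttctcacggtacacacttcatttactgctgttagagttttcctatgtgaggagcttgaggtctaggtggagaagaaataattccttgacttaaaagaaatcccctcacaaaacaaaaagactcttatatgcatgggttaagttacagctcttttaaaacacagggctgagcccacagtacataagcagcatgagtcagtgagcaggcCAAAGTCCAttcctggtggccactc

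Of 28 tested transporters, 12 fell, 7 of them by at least 1 log2 unit, and 6 rose (median -0.46). The iron importer *Slc11a2* went from 47.4 and 48.1 to 7.57 and 9.44 FPKM (fell by 2.36 ± 0.14, adjusted p = 0.000442). The basolateral glucose and fructose carrier *Slc2a2* (9.09 and 8.82 against 1.99 and 1.74 FPKM) fell by 1.8 ± 0.09 and the sodium-glucose carrier *Slc5a1* (154 and 161 against 85.4 and 86.7 FPKM) by 0.86 ± 0.07. *Slc10a2*, the bile acid importer of the ileum, was the only transporter that rose by at least 1 log2 unit, from 0.737 and 1.35 to 5.18 and 4.75 FPKM (1.56 ± 0.18, adjusted p = 0.00232). *Fabp6*, the ileal bile acid binding protein, was also higher, at 6.72 and 3.98 against 21 and 11.4 FPKM (rose by 1.41 ± 0.33, adjusted p = 0.0205), and this call was lost without EtOH DMSO replicate 2 (adjusted p = 0.0978).

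More members fell than rose in each of 3 lists of lipid metabolism. Fatty acid synthesis lost 11 of 14 tested members and gained 2 (median -0.54), with *Acss2* (24.6 and 27.1 against 9.56 and 11.5 FPKM), which activates acetate, and the mitochondrial citrate carrier *Slc25a1* (119.7 and 142 against 55 and 60.9 FPKM) lower by 1.22 ± 0.12 and 1.16 ± 0.11. One of the 2 gains, *Mid1ip1*, a regulator of acetyl-CoA carboxylase, went from 27.1 and 31.4 to 122 and 134 FPKM (rose by 2.1 ± 0.10, adjusted p = 0.000322). Cholesterol synthesis and uptake lost 11 of 24 and gained 2 (median -0.31). *Idi1*, isopentenyl diphosphate isomerase, went from 107 and 101.3 to 43.9 and 43.2 FPKM (fell by 1.24 ± 0.09, adjusted p = 0.000637). Fatty acid oxidation and ketogenesis lost 12 of 29 and gained 2 (median -0.27). *Hadh* and *Acaa2*, enzymes of mitochondrial beta-oxidation, fell from 109 and 103 to 32.4 and 33.9 FPKM (1.64 ± 0.07, adjusted p = 0.00029) and from 152 and 141 to 51.8 and 54.2 FPKM (1.45 ± 0.08, adjusted p = 0.000422). The carnitine palmitoyltransferase *Cpt2* rose, from 29.3 and 26.8 to 42.7 and 52.6 FPKM, and *Cpt1a* differed by 0.22 ± 0.11 (adjusted p = 0.158).

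Uptake and packaging of dietary fat showed no common direction: 6 of 25 tested members fell and 8 rose (median -0.04), and with centring 11 fell and 6 rose. Over all genes 17.1% fell and 25.3% rose. The sterol importer *Npc1l1* went from 62.7 and 74.3 to 21.6 and 26.7 FPKM (fell by 1.47 ± 0.14, adjusted p = 0.00126). Apolipoproteins split. *Apoa1* rose from 199 and 183 to 293 and 291 FPKM (0.61 ± 0.09, adjusted p = 0.00512). *Apoc3* fell from 22.7 and 18.2 to 11.5 and 10.8 FPKM, and *Apoa4* overlapped at 96.2 and 92.6 against 104 and 90.7 FPKM (difference 0.04 ± 0.11, adjusted p = 0.786). *Apobec1*, which edits apolipoprotein B mRNA, rose from 1.27 and 1.4 to 9.6 and 9.54 FPKM (2.18 ± 0.14, adjusted p = 0.000485).

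Core mitochondrial genes moved by less than 1 log2 unit. In the tricarboxylic acid cycle 13 of 24 tested genes fell and 0 rose, none by as much as 1 log2 unit (median -0.36). At an unadjusted p under 0.05 in limma, 2 rose. *Sdhb* and *Sdha*, subunits of succinate dehydrogenase, had the largest differences, -0.92 ± 0.11 (adjusted p = 0.00245) and -0.83 ± 0.07 (adjusted p = 0.000955). Of 44 nuclear genes of oxidative phosphorylation 12 fell and 5 rose (median -0.14, range -0.64 to 0.64), beside 17.1% of all genes lower and 25.3% higher.

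Among the 15 largest falls outside the interferon list, taken among called genes whose higher group averaged 5 FPKM or more, 7 were members of these lists: *Ugt1a9*, *Ces1d*, *Fbp1*, *Akr1c14*, *Ces1g*, *Ugt2b5* and *Aldh1a7*. *Maob*, monoamine oxidase B, which is on none of the lists, went from 33.3 and 32.8 to 3.65 and 3.85 FPKM (fell by 2.84 ± 0.08, adjusted p = 0.000225). *Pbld1* stood at 12 and 11 against 0.327 and 0.255 FPKM. *Myl9*, a smooth muscle type myosin light chain, fell from 18 and 15.9 to 0.0935 and 1.23 FPKM (3.52 ± 0.33, adjusted p = 0.00133), in libraries where the summed fibroblast and muscle markers were 0.431 and 0.840 FPKM in EtOH DMSO and 0.589 and 0.853 FPKM in 4-OHT DMSO. The other 5 carry the names of pseudogenes or predicted genes. The pseudogene *Gm10095* was at 64.4 and 60.1 FPKM in EtOH DMSO and listed at 0 in both 4-OHT DMSO libraries, but at 0 and 0.0268 FPKM in EtOH Nec-1 and 35.1 FPKM in 4-OHT Nec-1. The pseudogene *Usf2-ps1* (7.68 and 7.28 FPKM against 0 and 0) was at 4.54 and 0 FPKM in the EtOH Nec-1 libraries and *Gm49527* (7.99 and 6.59 against 0.0965 and 0.16 FPKM) at 7.99 and 0.955 FPKM there, so both differed widely between replicates of a group. The calls of *Usf2-ps1* and *Gm49527* were lost without EtOH DMSO replicate 1 (adjusted p = 0.105 and 0.103) and without replicate 2 (0.0970 and 0.0836), and that of *Usf2-ps1* also without either 4-OHT DMSO library (0.0522 and 0.0524). The long noncoding RNA *Gm36520* (6.75 and 6.12 FPKM) and *Gm28040* (10.9 and 3.29 FPKM) were listed at 0 in both 4-OHT DMSO libraries.

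**Figure D3:**
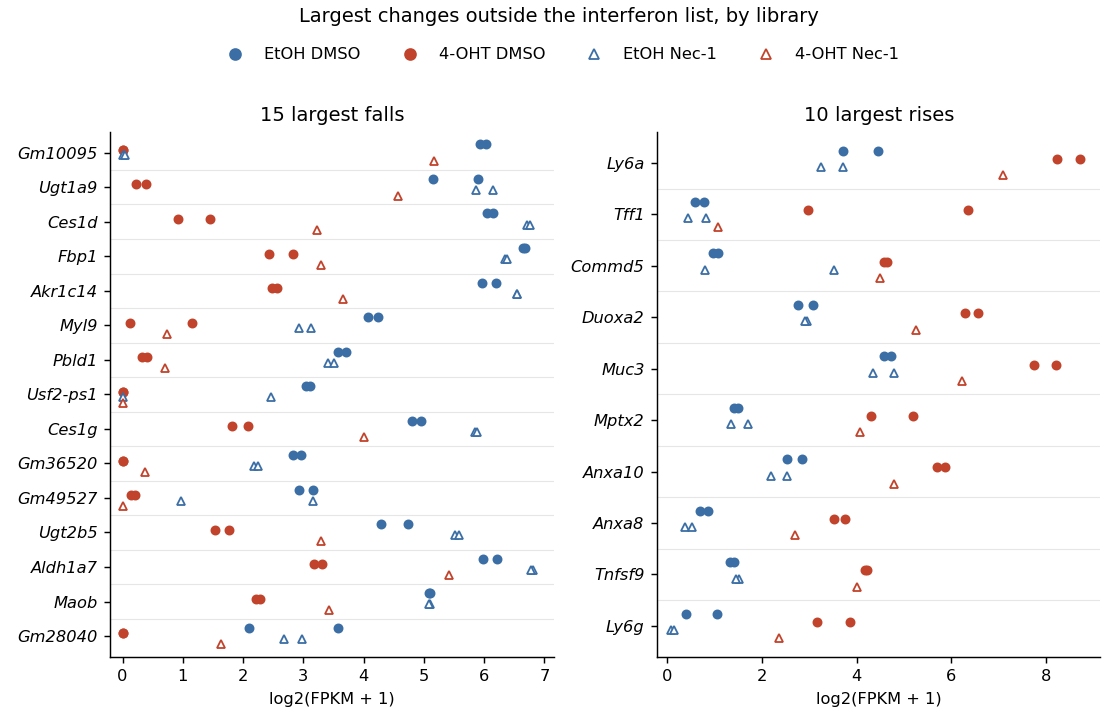
The 15 largest falls (left) and the 10 largest rises (right) outside the interferon list, as log2(FPKM + 1) in each of the 7 RNA libraries; filled circles are DMSO and open triangles Nec-1 libraries, EtOH in blue and 4-OHT in red. For *Ces1d*, *Fbp1* and *Akr1c14* all red symbols lie left of all blue ones, while *Gm10095* has its red and blue symbols in opposite order without and with Nec-1, and the red circles of *Tff1* lie far apart.

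The largest rises outside the interferon list were led by *Ly6a* (chr15:74994877-74998031, GRCm38.p6), which encodes the surface protein Sca-1 of regenerating epithelium and is also raised by interferon, at 20.9 and 12.1 against 418 and 296 FPKM (rose by 4.38 ± 0.31, adjusted p = 0.000637). *Duoxa2*, which matures the hydrogen peroxide-producing oxidase DUOX2, went from 5.83 and 7.49 to 77.5 and 93.4 FPKM (rose by 3.5 ± 0.14, adjusted p = 0.000252). The membrane mucin *Muc3* went from 22.8 and 25.4 to 213 and 292 FPKM (rose by 3.32 ± 0.21, adjusted p = 0.000472). The rule that picked these genes took only those whose groups did not overlap, as was so for 41.3% of all genes in this direction. *Tnfsf9*, the ligand of the costimulatory receptor 4-1BB, rose from 1.53 and 1.67 to 17.5 and 17.1 FPKM, and the annexins *Anxa8* and *Anxa10* rose from 0.826 and 0.622 to 12.5 and 10.5 FPKM and from 4.77 and 6.18 to 50.7 and 57.1 FPKM. *Tff1*, a trefoil peptide of the stomach, was at 0.712 and 0.505 against 6.85 and 80.6 FPKM, and its difference of 3.98 ± 1.03 (adjusted p = 0.0279) went from 5.67 without 4-OHT DMSO replicate 1 to 2.29 without replicate 2, and did not pass without EtOH DMSO replicate 1 (adjusted p = 0.111) or replicate 2 (0.118). Other gastric genes stood high in 4-OHT DMSO replicate 2 alone. *Gkn2* was at 0 in both EtOH DMSO libraries and at 0.0666 and 20.2 FPKM in 4-OHT DMSO replicates 1 and 2, *Gkn1* was at 0.252 and 10.04 FPKM in the same 2 libraries, and *Tff2* at 0.0924 and 12.6 FPKM, and these 3 did not pass the filter. Of the 6 gastric genes tested, 3 were under 1 FPKM in both EtOH DMSO libraries and 1 in both 4-OHT DMSO libraries. *Commd5* (0.961 and 1.11 against 22.8 and 23.8 FPKM) was at 0.739 and 10.4 FPKM in the EtOH Nec-1 libraries, and its call was lost without EtOH DMSO replicate 1 (0.0941) or replicate 2 (0.0856). *Ly6a* and *Ly6g* have near relatives in the *Ly6* family, and their values may include reads of these.

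A list of regenerative and fetal-like epithelial genes moved most as a group. Of 19 tested members 18 rose, 15 of them by at least 1 log2 unit, and 1 fell, with a median of 1.97. The tight junction gene *Cldn4* went from 80.4 and 95.9 to 508 and 521 FPKM (rose by 2.54 ± 0.11, adjusted p = 0.000262), and the EGF receptor ligand amphiregulin (*Areg*) from 98.3 and 107 to 533 and 621 FPKM (rose by 2.47 ± 0.11, adjusted p = 0.000269), with a second ligand, epiregulin (*Ereg*), at 3.48 and 4.95 against 19.7 and 21.7 FPKM. *Anxa1* (4.72 and 5.76 against 42.7 and 32.9 FPKM), *S100a6* (32.6 and 32.2 against 215 and 193 FPKM) and clusterin (*Clu*, 4.75 and 6.69 against 46.4 and 24.6 FPKM), which marks revival stem cells, rose by 2.63 ± 0.16, 2.61 ± 0.09 and 2.39 ± 0.31. The member that fell was *Sprr2a2*, at 774 and 596 against 456 and 491 FPKM, and this call was lost without EtOH DMSO replicate 1 (difference -0.33, adjusted p = 0.0763) and without 4-OHT DMSO replicate 1 (0.0856) or 2 (0.0503). The count of members called higher ran from 13 to 17 when 1 library was left out. Some of these genes respond to interferon and to cytokines in many tissues, and 1 of the 6 tested gastric genes, *Anxa10*, is on both lists.

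Of 24 crypt stem cell genes 6 rose and 6 fell (median -0.11), shares near the 25.3% and 17.1% of all genes, and 5 rose and 7 fell with centring. Without members under 1 FPKM in both libraries of a group, such as *Lgr5* and *Sp5*, 5 of 21 rose and 4 fell. *Smoc2* went from 12.1 and 11.8 to 4.13 and 4.4 FPKM (fell by 1.3 ± 0.09, adjusted p = 0.000549), and *Lgr5*, the receptor that defines crypt base stem cells, was low in all libraries and fell from 1.26 and 1.52 to 0.565 and 0.468 FPKM (0.65 ± 0.12, adjusted p = 0.0098). *Olfm4* went from 24.3 and 21.4 to 15.7 and 9.22 FPKM, a call lost without EtOH DMSO replicate 1 (adjusted p = 0.146) or replicate 2 (0.0951), and without 4-OHT DMSO replicate 2 its difference of -0.87 became -0.51. *Axin2*, a readout of Wnt signalling, differed by -0.36 ± 0.13 (adjusted p = 0.0795, and 0.0219 with centring), and the Wnt target *Sp5* rose from 0.834 and 0.578 to 4.43 and 3.75 FPKM (1.58 ± 0.14, adjusted p = 0.00106). Of 46 cell cycle genes 8 rose and 7 fell, beside the same 25.3% and 17.1% of all genes. Their median was 0.03, and -0.12 after centring, where 4 rose and 9 fell. *Mki67* overlapped at 22.8 and 25.2 against 28.2 and 22.5 FPKM, and cyclin E1 (*Ccne1*) rose from 2.23 and 1.46 to 7.7 and 7.24 FPKM (1.59 ± 0.15, adjusted p = 0.00144).

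Secretory cell genes were higher across the 3 types. Of 17 tested Paneth cell genes 14 rose and 0 fell (median 1.38), of 22 goblet cell genes 17 rose and 0 fell (median 0.92), and of 20 enteroendocrine genes 16 rose and 0 fell (median 0.76). At an unadjusted p under 0.05 in limma, the count that fell was 0 in each of these 3 lists as well. The Paneth list took 2.13% and 2.04% of the FPKM sum in EtOH DMSO and 5.24% and 5.2% in 4-OHT DMSO. *Mmp7*, the protease that activates defensins, went from 51.7 and 46.4 to 256 and 256 FPKM (rose by 2.36 ± 0.09, adjusted p = 0.000225), and the antimicrobial ribonuclease *Ang4* from 297 and 238 to 1179.5 and 1269 FPKM (rose by 2.2 ± 0.13, adjusted p = 0.000453). Defensins are near copies of each other, so the 6 tested *Defa* genes, which all rose, are uncertain one by one. The goblet list also counts membrane mucins, among them *Muc3* with the largest rise of the list (3.32 ± 0.21), so its members are not all goblet cell products. Within the goblet list the members did not rise alike: *Clca1* (27.4 and 34.4 against 131 and 147 FPKM) and *Zg16* (62.1 and 66.3 against 227 and 339 FPKM) rose by 2.14 ± 0.13 and 2.09 ± 0.19. The gel-forming mucin *Muc2* (17.6 and 20.2 against 44.9 and 43.2 FPKM) rose by 1.18 ± 0.09. *Tff3* (1043 and 945 against 1211 and 1354 FPKM) rose by 0.37 ± 0.11, a call lost without EtOH DMSO replicate 1 (adjusted p = 0.0527), EtOH DMSO replicate 2 (0.116) or 4-OHT DMSO replicate 2 (0.103) and with centring (0.22). Among hormones, *Gip* rose from 157 and 145 to 390.0 and 458 FPKM and *Cck* from 42.4 and 54.6 to 102 and 124 FPKM. *Pyy*, a hormone of L cells, overlapped at 8.11 and 5.18 against 6.91 and 3.78 FPKM (difference -0.29 ± 0.29). Only 8 of 22 tuft cell genes passed the filter, and 2 rose and 1 fell, beside 25.3% and 17.1% of all genes. Of the 2 that rose, *Kctd12* was at 0 FPKM in both EtOH DMSO libraries.

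Inducible antimicrobial genes did not follow 1 direction. Of 11 tested members 7 rose and 3 fell (median 0.63). *Reg3g*, a bactericidal lectin, went from 25.4 and 29.3 to 128 and 97.2 FPKM (rose by 1.99 ± 0.15, adjusted p = 0.000757). *Reg1* went from 43.3 and 28.1 to 10.2 and 13.8 FPKM (fell by 1.48 ± 0.29, adjusted p = 0.0119), a call lost without EtOH DMSO replicate 1 (adjusted p = 0.0614). The polymeric immunoglobulin receptor *Pigr*, which carries antibodies across the epithelium, fell from 636 and 655 to 364 and 359.8 FPKM (0.83 ± 0.08, adjusted p = 0.00133).

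Among 23 tested regulators of the secretory fate, 11 rose and 5 fell (median 0.38), beside 25.3% and 17.1% of all genes. The share that fell was near that of all genes. With centring 9 rose and 6 fell. Without members under 1 FPKM in both libraries of a group, such as *Insm1* and *Notch1*, 9 of 20 rose and 4 fell. *Atoh1*, the factor that commits cells to secretory fates, went from 6.64 and 8.81 to 15.9 and 15.6 FPKM (rose by 0.95 ± 0.14, adjusted p = 0.00429). *Foxa1* (chr12:57540628-57548029, GRCm38.p6), a factor of goblet and enteroendocrine differentiation, was the only one to rise by at least 1 log2 unit, from 7.11 and 7.45 to 26.3 and 22.4 FPKM (1.61 ± 0.11, adjusted p = 0.000635). *Sox4* (11.1 and 12.8 against 24.9 and 22.7 FPKM) and the enteroendocrine factor *Insm1* (0.954 and 0.922 against 2.25 and 2.4 FPKM) rose as well. Of the terminal factors, *Spdef* of goblet cells overlapped at 3.77 and 1.89 against 2.75 and 4.27 FPKM (difference 0.26 ± 0.28, adjusted p = 0.498). *Xbp1*, which expands the secretory apparatus, fell from 76.3 and 79 to 47.6 and 53.4 FPKM (0.61 ± 0.09, adjusted p = 0.0043). The Notch targets *Hes1* (39.1 and 33.1 against 19.2 and 19.3 FPKM) and *Nrarp* (9.9 and 9.29 against 4.45 and 4.4 FPKM) fell by 0.87 ± 0.12 (adjusted p = 0.00407) and 0.96 ± 0.09 (adjusted p = 0.00116). *Notch1* and its ligand *Dll4* were low, at 1.17 and 1.5 against 0.835 and 0.63 FPKM and 1.72 and 1.91 against 1.04 and 1.01 FPKM, and both calls were lost when any 1 of the 4 libraries was left out (adjusted p of 0.053 to 0.172 and of 0.0549 to 0.0872). The ligand *Dll1* differed by -0.10 ± 0.11 (adjusted p = 0.5).

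As a list, transcription factors of intestinal identity stood near all genes. Of 44 tested, 11 rose and 9 fell, against 25.3% and 17.1% of all genes, with a median of 0.08 that was the same as over all genes and -0.07 after centring, where 4 rose and 16 fell. *Hnf4a*, a nuclear receptor that drives enterocyte genes, was at 155 and 185 against 144 and 147 FPKM (difference -0.22 ± 0.11, adjusted p = 0.146), and the homeobox factor *Cdx2* at 132 and 137 against 111 and 120.2 FPKM (difference -0.22 ± 0.08, adjusted p = 0.0755). Neither passed the test, although the groups did not overlap in either, as was so for 30.8% of all genes in that direction and 41.3% in the other. With centring both were called lower (differences -0.37 and -0.37, adjusted p = 0.0288 and 0.0157). *Nr1i3* (chr1:171213934-171218845, GRCm38.p6), the constitutive androstane receptor CAR that switches on detoxification genes, had the largest fall, from 21.3 and 23.1 to 3.26 and 3.59 FPKM (2.39 ± 0.09, adjusted p = 0.000225). *Nr1i2*, the related receptor PXR, overlapped at 20.5 and 23.6 against 22.8 and 24 FPKM (difference 0.09 ± 0.10, adjusted p = 0.51). The vitamin D receptor *Vdr* (31 and 35.5 against 17.2 and 18.2 FPKM), *Srebf2* of cholesterol synthesis (33.4 and 39.9 against 22.4 and 21.5 FPKM) and *Gata4* (33.4 and 34.2 against 21.5 and 25.2 FPKM), which specifies the jejunum, fell by 0.87 ± 0.10, 0.71 ± 0.10 and 0.52 ± 0.10. In the other direction, *Fos*, which is also an immediate early gene, rose as described below, *Klf6* rose from 22.8 and 26.4 to 80.3 and 82.9 FPKM (1.69 ± 0.10, adjusted p = 0.000422), and *Ehf* from 20.3 and 18.8 to 40.2 and 33.3 FPKM.

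**Figure D4:**
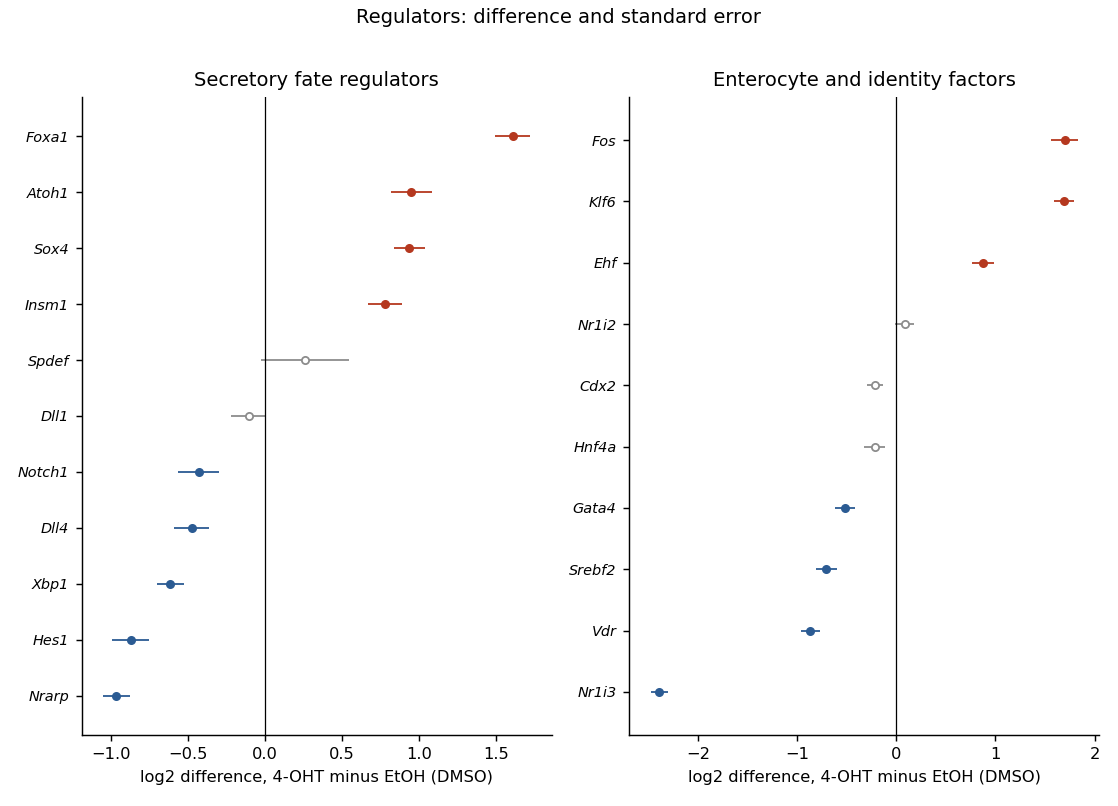
Log2 difference, 4-OHT minus EtOH in the DMSO libraries, with its standard error, for the secretory fate regulators (left, 11 genes) and the enterocyte and identity factors (right, 10 genes) described in the text; red is called higher, blue called lower and open grey not called. *Foxa1* and *Atoh1* stand at the top and *Hes1* and *Nrarp* at the bottom on the left, and on the right *Nr1i3* stands alone at -2.39 among the called genes.

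Most immediate early genes rose. Of 22 tested members 15 rose, 8 of them by at least 1 log2 unit, and 0 fell (median 0.77), also 0 at an unadjusted p under 0.05 in limma. *Fos* went from 6.8 and 7.83 to 23.9 and 28.1 FPKM (rose by 1.7 ± 0.13, adjusted p = 0.000841). *Jun* went from 7.36 and 8.63 to 22.4 and 21.2 FPKM (rose by 1.34 ± 0.10, adjusted p = 0.000728), and *Atf3* from 5.75 and 6.63 to 11.4 and 10.8 FPKM (rose by 0.76 ± 0.11, adjusted p = 0.00447). *Dusp5*, a phosphatase induced by ERK signalling, rose from 7.32 and 8.49 to 26.1 and 28.9 FPKM, and *Fosb* stayed under 0.1 FPKM in each of the 4 libraries and was not tested. *Myc* was at 21.9 and 20.4 against 21.9 and 28 FPKM (difference 0.22 ± 0.14, adjusted p = 0.264). Of 40 stress and p53 target genes 13 rose and 8 fell, shares not far from the 25.3% and 17.1% of all genes. Their median was 0.06, and -0.09 after centring, where 11 rose and 12 fell. *Nqo1*, a target of the oxidative stress factor NRF2, fell from 176 and 179.9 to 58.3 and 67.6 FPKM (1.49 ± 0.09, adjusted p = 0.000494). *Plk2* rose from 2.00 and 2.22 to 9.82 and 8.53 FPKM. The p53 target *Cdkn1a* overlapped at 92.9 and 97.6 against 85.1 and 104 FPKM. Of 20 m6A writers, erasers and readers 11 rose and 2 fell (median 0.40). The readers *Ythdf2* and *Ythdc1* were at 11 and 12 against 35.3 and 31.5 FPKM and 3.05 and 3.45 against 9.41 and 9.43 FPKM, both called higher. *Mettl14*, the partner of METTL3, was at 2.92 and 3.67 against 3.15 and 3.44 FPKM (difference 0.00 ± 0.12). Of 21 tested cell death genes 11 rose and 1 fell (median 0.51). These genes were listed because the study is about cell death, and with earlier results of these data known, so the count is no independent evidence of a direction. *Ripk1*, the kinase that Nec-1 inhibits, went from 3.37 and 3.66 to 8.32 and 8.26 FPKM (rose by 1.04 ± 0.10, adjusted p = 0.00151), and *Casp8*, the protease that cleaves it, overlapped at 48.7 and 50.6 against 46.8 and 54.2 FPKM (difference 0.02 ± 0.09, adjusted p = 0.883). *Cflar*, an inhibitor of caspase-8, rose from 2.96 and 3.65 to 4.91 and 4.74 FPKM (0.44 ± 0.11, adjusted p = 0.0275), a call lost with centring (0.0617) and without EtOH DMSO replicate 1 (0.0807) or 4-OHT DMSO replicate 1 (0.0849) or 2 (0.0667), and the factor *Csrnp1* overlapped at 0.958 and 1.35 against 1.27 and 2.48 FPKM. *Tnf* had the largest rise, from 1.00 and 1.38 to 13.6 and 13.9 FPKM (2.76 ± 0.18, adjusted p = 0.000558).

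The libraries with Nec-1 share no library with the comparison above, and give the same genes a second reading with 1 library labelled 4-OHT against 2 labelled EtOH, for which no test was made. Only the estimate of spread in the test above drew on the EtOH Nec-1 pair. The EtOH libraries of the 2 settings differed in level. P450 genes took 0.184% and 0.187% of the FPKM sum in EtOH DMSO and 0.367% and 0.371% in EtOH Nec-1. Conjugating enzymes took 1.45% and 1.48% against 2.61% and 2.71%, and carboxylesterases 0.193% and 0.202% against 0.332% and 0.339%. The fructose list was lower with Nec-1, at 0.446% and 0.413%. The effect of Nec-1 itself was not tested. Of the 461 genes outside the interferon list that fell by at least 1 log2 unit, 435 (94.4%) lay below both EtOH Nec-1 libraries, against 37.9% of all genes tested, and of the 738 that rose by as much, 704 (95.4%) lay above both, against 50.7% of all genes. The medians were smaller with Nec-1 for the lost genes, -0.89 against -1.31, and for the gained ones, 1.06 against 1.31. Those DMSO medians come from genes picked by that very contrast, so the 2 values of a pair are not on equal terms. All 17 conjugating enzymes, 6 carboxylesterases, 6 fructose genes, 10 retinol and aldehyde genes, 6 amino acid genes and 5 brush border enzymes that fell by at least 1 log2 unit were below both EtOH Nec-1 libraries, as were 6 of the 7 P450 genes. The exception, *Cyp2c66*, was at 48.2 and 41.3 against 18.3 and 22 FPKM in DMSO and at 184 and 189 FPKM against 196 FPKM with Nec-1. Lying below both can be a small step, as *Ces1e* differed by -0.19 with Nec-1 and by -1.60 in DMSO. Over all tested members of these 7 lists, in the order given, median differences with Nec-1 were -0.42, -0.27, -0.33, -0.42, -0.095, -0.37 and -0.23. In DMSO they were -0.85, -1.04, -0.74, -0.68, -0.31, -0.66 and -0.71. *Fbp1* was at 80.5 and 81.9 FPKM in EtOH Nec-1 and 8.82 FPKM in 4-OHT Nec-1, *Oat* at 848 and 857 FPKM and 188 FPKM, and *Nr1i3* at 22.6 and 23.2 FPKM and 7.68 FPKM. *Ugt1a9*, nearly absent from the 4-OHT DMSO libraries, was at 22.8 FPKM in 4-OHT Nec-1 against 57.1 and 69.5 FPKM in EtOH Nec-1. *Ly6a* was at 135 FPKM against 12.1 and 8.5 FPKM and *Foxa1* at 15.4 FPKM against 6.37 and 5.57 FPKM. All 11 Paneth, 10 goblet, 6 enteroendocrine and 15 regenerative genes that rose by at least 1 log2 unit were above both EtOH Nec-1 libraries.

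**Figure D5:**
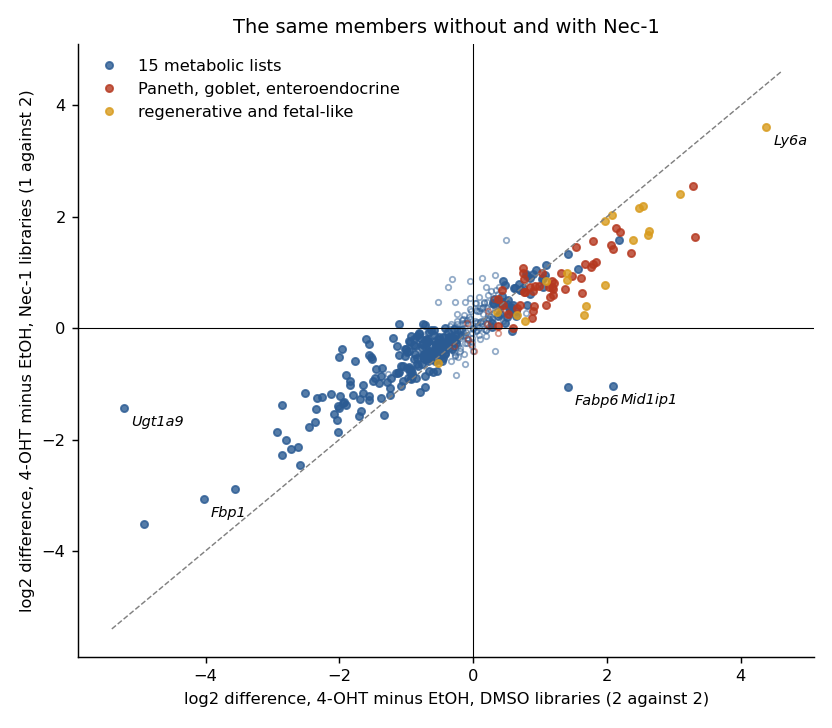
Log2 difference, 4-OHT minus EtOH, of the members of 19 gene lists in the DMSO libraries (horizontal, 2 against 2) and in the Nec-1 libraries (vertical, 1 against 2); filled points were called in DMSO, open points were not, and the dashed line marks equal differences. Most filled points lie at the lower left and upper right and nearer to 0 with Nec-1, and *Mid1ip1* and *Fabp6* lie in the lower right.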

How the data were processed

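Total RNA of organoids was made into libraries with a NEBNext Ultra kit and sequenced on an Illumina instrument. The submitters' processing notes name HISAT2 2.1.0, StringTie 1.3.3b and the mm10 genome, and the annotation version is not given in the sources used here. The authors deposited FPKM values per gene, 1 table per library, which carry no read counts. A pair of columns that 1 table holds a second time matched the first to within rounding. Read depth is unknown. The spacing of low values gave depths relative to the first EtOH DMSO library of 0.869 to 1.03 in the other DMSO libraries, and no counting interval was made. Symbols came from the reference name table, and 4 list symbols were not found.

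From these values log2(FPKM + 1) was computed (Python 3.11.15, pandas 2.3.3, numpy 2.4.6), genes with at least 1 FPKM in 2 of the 4 DMSO libraries were kept, and limma 3.58.1 in R 4.3.3 was fitted with a mean-variance trend to the 7 RNA libraries, with 1 mean per group and 3 residual degrees of freedom, and Benjamini-Hochberg adjustment over all 12381 genes. The contrast was 4-OHT DMSO minus EtOH DMSO. Lists were described by counts and medians. Tested on simulated data of this comparison over 12381 genes, the procedure found 65.2% of the 1-log2-unit shifts and 100% of those of 2 log2 units. False calls made up 5.1%, and 0 calls had the sign inverted. The simulation changed only a small share of the genes, none of them near 1 FPKM, and gave genes of like level the same spread. In the data 3135 genes were called higher and 2116 lower, so these rates may not hold there. The members and the gene lists were chosen with earlier results of these data known. Genes named by rule were *Mettl3*, genes the study names, the 15 largest falls and 10 largest rises outside the interferon list, and up to 5 called members per list with the largest change. Those falls and rises were taken among called genes whose higher group averaged 5 FPKM or more, with the same direction in all 4 pairings of libraries. Members that define a list were also named, but are not in the counts of genes named by rule. Other members named were chosen after their values were seen, and a few members are counted but not reported here by name. In all, 14 alternatives were tried: scaling, pseudocount, filter, trend, libraries in the fit, replicate block and leaving out each DMSO library. Figures were drawn with matplotlib 3.10.9.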

Additional observations from a re-analysis of the deposited data

Results flagged for a closer look

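For 4 of the genes named by rule, both libraries labelled 4-OHT DMSO lay on one side of the EtOH DMSO libraries. The library labelled 4-OHT Nec-1 lay on the other side of both EtOH Nec-1 libraries. *Cyp2c66*, described above and not named by that rule, did so too. Of the 461 genes that fell and the 738 that rose by at least 1 log2 unit outside the interferon list, 12 and 14 lay on the opposite side of both EtOH Nec-1 libraries. With 1 library labelled 4-OHT Nec-1, the difference between the 2 settings was not tested. The pseudogene *Gm10095* differed by 5.15 log2 units with Nec-1, at 0 and 0.0268 FPKM against 35.1 FPKM, and was listed at 0 in both 4-OHT DMSO libraries. *Fabp6*, the ileal bile acid binding protein, differed by -1.06 with Nec-1 (17.4 and 14.9 FPKM against 7.21 FPKM) and by 1.41 in DMSO. *Mid1ip1*, a regulator of fatty acid synthesis, differed by -1.03 with Nec-1 (90.5 and 91.2 FPKM against 43.9 FPKM) and by 2.1 in DMSO. The lectin *Reg1* differed by 0.50 with Nec-1 (9.8 and 6.16 FPKM against 11.5 FPKM) and by -1.48 in DMSO. With 2 libraries in a group, no library could be tested for standing apart from its group.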

How the results depend on the processing

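Of 163 genes named by rule, 161 were called. Apart from *Mettl3* and the genes the study names, the rule took only called genes, so this share was set by it. Members named outside the rule, such as *Tff3*, *Sprr2a2*, *Notch1* and *Dll4*, are not in these counts, and each of those lost its call under at least 1 alternative. Of the 161, 140 kept their call and direction under every one of the 14 alternatives. The other 21 lost the call under at least 1, most often without EtOH DMSO replicate 2 (17) or without a filter on low values (19), and 0 changed direction. Of 30 list medians, 6 took the other sign under at least 1 alternative, and none of these was further than 0.111 from 0 as reported: brush border structure, tuft cell and stem cell genes with a library left out, stress genes with either rescaling, and identity factors and cell cycle genes with both. *Casp8*, which was not called, changed sign with median centring (-0.13), upper quartile scaling (-0.14), without 4-OHT DMSO replicate 2 and without EtOH DMSO replicate 1 (-0.084 to 0.123 over the libraries left out). Genes outside the interferon list higher by at least 1 log2 unit numbered 738, and 1127 with a pseudocount of 0.1. Those lower by as much numbered 461, 711 with median centring and 726 with a pseudocount of 0.1.

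With 1 library left out in turn, genes called higher numbered 2181 to 2789 and lower 1437 to 1944, those of at least 1 log2 unit outside the interferon list 662 to 943 and 429 to 585, metabolic members lower 171 to 190 and by at least 1 log2 unit 71 to 79, secretory members higher 40 to 46 and regenerative members higher 13 to 17. A group left with 1 library was assumed to vary like the others. Labels give the groups the same replicate numbers. Same-numbered libraries did not deviate together (correlations over genes 0.0096, -0.048 and -0.015), which cannot show whether they share a culture, an animal or a preparation. With the replicate block, 2834 genes were higher and 1921 lower. FPKM tables carry no depth, and differences of genes near 1 FPKM are limited by it.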
